A study of Homo sapiens with 3 samples.

Results

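The miR-23, miR-27 and miR-24 miRNAs were followed by small RNA sequencing in 3 strains of HCCLM3, a cell line of human hepatocellular carcinoma. The members were all names in the count tables for miR-23a, miR-23b, miR-27a, miR-27b or miR-24, with any copy or arm suffix, which gave 11 of 1921 listed names. The labels call the strains parent, subclone1 and subclone2. The parent was labelled with low metastasis, subclone1 with a higher ability to metastasize to the lung, and subclone2 with an ability for both lung and celiac lymph node. According to the study's methods its parental line was a red fluorescent derivative of HCCLM3 with high metastatic potential, and its subclones were each grown from a single cell of a lung or lymph node metastasis in nude mice. The labels do not say which of these clones subclone1 and subclone2 are, and each was taken as 1 clone. All strains were cultured in DMEM, and no treatment or genetic change is given in the labels.

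Each strain had 1 library, and values are given throughout in the order parent, subclone1, subclone2. The libraries held 7902438, 3570864 and 4568075 counts. With 1 library a strain no test was possible, and each ratio compares libraries, not strains. Levels are given as CPM, counts divided by the library total and multiplied by 1000000, with exact 95% binomial intervals that cover counting error only. Depth and strain cannot be told apart in this design, since the parent library was 2.21 times as deep as subclone1. The liver-defining hsa-miR-122-5p was near absent in every strain, with 53, 19 and 18 counts, at most 6.71 CPM.

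A miRNA is cut from a hairpin precursor, and either the 5p or the 3p strand of the hairpin can be loaded into an Argonaute protein. The loaded strand represses mRNAs that pair with its seed, bases 2 to 8. The miR-23, miR-27 and miR-24 hairpins occur as a pair of paralogous clusters in the human genome, and the hairpins of each cluster are transcribed together. Among the known targets are PPARG, an adipogenic nuclear receptor, for miR-27, and cell-cycle genes for miR-24. Both clusters have been studied in blood vessel growth and in hepatic lipid metabolism.

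The hairpins MIR23A, MIR27A and MIR24-2 lie within 373 bases on chromosome 19 (GRCh38, chr19:13836287-13836659, minus strand). In GENCODE all 3 overlap exons of AC020916.1, a non-coding gene on the same strand, and in RefSeq they lie within MIR23AHG, their host transcript. MIR23B, MIR27B and MIR24-1 lie within 881 bases on chromosome 9 (chr9:95085208-95086088, plus strand) in C9orf3, named AOPEP in RefSeq, which encodes an aminopeptidase. MIR23B and MIR27B fall in introns of this gene, whereas MIR24-1 overlaps one of its annotated exons. The submitters' processing notes name the build hg19, but the count tables hold no coordinates, and all positions given here are those of the GRCh38 annotation.

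RefSeq (GRCh38.p14) held the mature sequences of 11 of 11 members. The 3p arms are shown because their seeds define the miR-23, miR-27 and miR-24 families and because the paralogues are nearly alike. Bases are written 5′ to 3′, and the capitals mark the seed.
hsa-miR-23a-3p: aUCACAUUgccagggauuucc
hsa-miR-23b-3p: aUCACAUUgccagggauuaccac
hsa-miR-27a-3p: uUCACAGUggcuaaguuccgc
hsa-miR-27b-3p: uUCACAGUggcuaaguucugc
hsa-miR-24-3p: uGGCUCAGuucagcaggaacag

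Counted from the 5′ end, hsa-miR-23a-3p and hsa-miR-23b-3p are identical over 18 bases and differ by U19A, after which hsa-miR-23b-3p is longer (23 against 21 bases). hsa-miR-27a-3p and hsa-miR-27b-3p are likewise identical over 18 bases and differ by C19U. A read that ends before that base cannot be given to either paralogue, and how such reads were counted is not stated, so the split between a and b names is uncertain. hsa-miR-24-3p is the same sequence from MIR24-1 and MIR24-2, and its counts belong to neither cluster alone. The miR-23 and miR-27 seeds differ by 1 base. The one other listed name with a seed of these families, hsa-miR-23c from chromosome X, had 0, 0 and 1 counts.

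The 5p arms are shown because they separate the paralogues better than the 3p arms do.
hsa-miR-23a-5p: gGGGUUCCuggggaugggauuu
hsa-miR-23b-5p: uGGGUUCCuggcaugcugauuu
hsa-miR-27a-5p: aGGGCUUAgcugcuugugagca
hsa-miR-27b-5p: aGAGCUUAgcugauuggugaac
hsa-miR-24-1-5p: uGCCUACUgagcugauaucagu
hsa-miR-24-2-5p: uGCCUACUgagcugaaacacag

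hsa-miR-23a-5p and hsa-miR-23b-5p share a seed but differ at 7 positions. hsa-miR-27a-5p and hsa-miR-27b-5p differ at 8 positions, the first of them inside the seed (G3A). hsa-miR-24-1-5p and hsa-miR-24-2-5p share their first 15 bases and differ at 6 of the positions after them.

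Together the 11 members took up 0.394%, 0.521% and 0.399% of the library totals. Their CPM summed to 3936, 5206 and 3991, so by library totals subclone1 stood apart and subclone2 lay next to the parent. The sum in subclone1 was 1.32 times that of the parent (95% interval 1.30 to 1.35), and the sum in subclone2 was 1.01 times that of the parent (0.996 to 1.03).

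By seed, miR-27 was the family with most counts and with the largest ratio of subclone1 to the parent. Its 3p counts were 1947, 2990 and 1953 CPM. The miR-23 3p names summed to 872, 1074 and 928 CPM. hsa-miR-24-3p had 520, 573 and 526 CPM. The ratio of subclone1 to the parent was thus 1.54 for miR-27 (1.498 to 1.57), 1.23 for miR-23 (1.18 to 1.28) and 1.10 for miR-24 (1.04 to 1.16). These intervals did not overlap between miR-27 and the others. For subclone2 against the parent the ratio was 1.003 for miR-27 (0.977 to 1.03) and 1.06 for miR-23 (1.02 to 1.11).

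**Figure D1:**
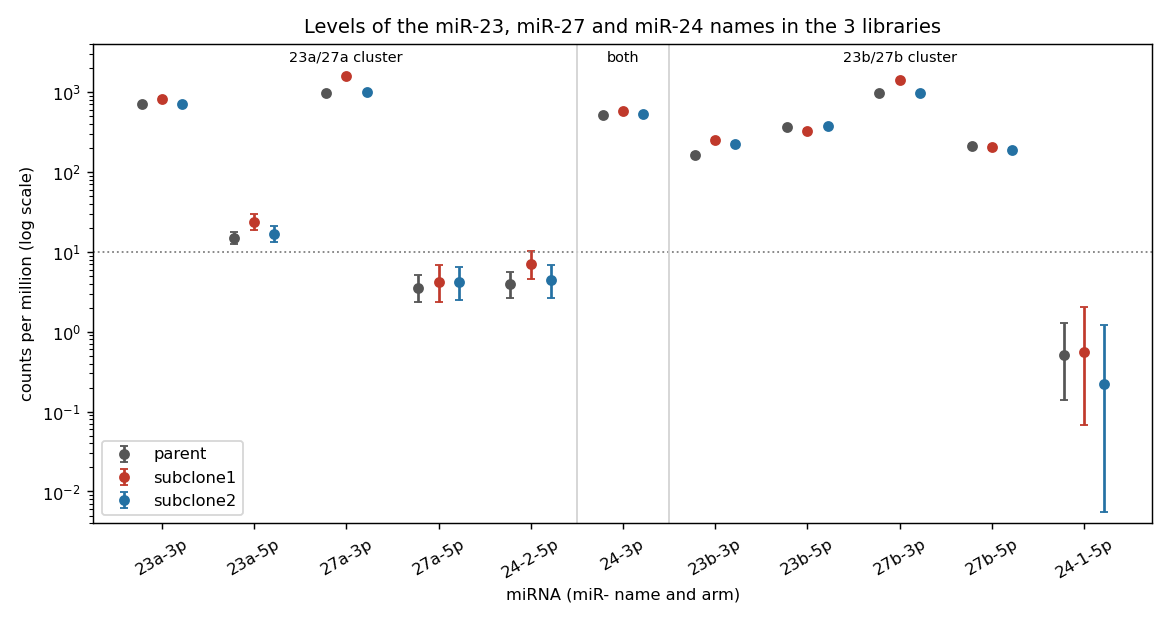
Level of each member in CPM (log axis) in the parent, subclone1 and subclone2, 1 library each, with exact 95% binomial intervals; the dotted line marks 10 CPM. The 3p arms of miR-27a and miR-27b were highest in subclone1, with 1590 and 1401 CPM, and 3 of the 5p names stayed below the line in every library.

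In the 23a/27a cluster, hsa-miR-27a-3p was the leading product. It had 7606, 5676 and 4532 counts, or 962, 1590 and 992 CPM. Subclone1 was above both others, and by library totals the intervals of the parent (941 to 984) and subclone2 (963 to 1021) overlapped. hsa-miR-23a-3p, from the neighbouring hairpin, had 5591, 2949 and 3220 counts, or 708, 826 and 705 CPM. By library totals its parent and subclone2 levels lay within each other's intervals, and subclone1 was higher. With TMM scaling the log2 ratio of hsa-miR-23a-3p to the parent was 0.16 in subclone1 and 0.17 in subclone2. The subclone1 ratio to the parent was 1.65 for hsa-miR-27a-3p (1.60 to 1.71) but 1.17 for hsa-miR-23a-3p (1.12 to 1.22).

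This unequal difference within a single cluster can be read without scaling between libraries. Of the counts of hsa-miR-23a-3p and hsa-miR-27a-3p together, hsa-miR-23a-3p held 42.4%, 34.2% and 41.5%. The odds ratio was 0.707 for subclone1 against the parent (95% interval 0.668 to 0.748, counting error only) and 0.967 for subclone2 against the parent (0.913 to 1.02). The other cluster differed in this respect. Of the counts of hsa-miR-23b-3p and hsa-miR-27b-3p together, hsa-miR-23b-3p held 14.3%, 15.1% and 18.8%, with an odds ratio of 1.06 for subclone1 (0.970 to 1.17) and 1.39 for subclone2 (1.27 to 1.52), each against the parent.

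The 5p names of this cluster were minor. hsa-miR-23a-5p had 14.9, 23.8 and 16.6 CPM, on 118, 85 and 76 counts. hsa-miR-24-2-5p had 31, 25 and 20 counts, and hsa-miR-27a-5p had 28, 15 and 19. The interval of the subclone1 to parent ratio lay above 1 for hsa-miR-23a-5p (ratio 1.59, 1.19 to 2.12), and only just so for hsa-miR-24-2-5p (1.78, 1.01 to 3.12), whose interval reached below 1 with TMM scaling. For hsa-miR-27a-5p a difference was not detectable at this depth (1.19, 0.589 to 2.30).

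In the 23b/27b cluster, hsa-miR-27b-3p led with 7779, 5002 and 4388 counts, or 984, 1401 and 961 CPM. Again subclone1 was highest, and by library totals the parent and subclone2 intervals overlapped. hsa-miR-23b-3p had 1296, 887 and 1018 counts, or 164, 248 and 222.9 CPM. By library totals this was the only kept member whose interval lay above 1 in both subclones against the parent, with ratios of 1.51 (1.39 to 1.65) for subclone1 and 1.36 (1.25 to 1.48) for subclone2. The intervals of the subclone levels overlapped (232 to 265 and 209 to 237 CPM). The direct ratio of subclone2 to subclone1 was 0.897 by library totals (0.819 to 0.983), below 1. Its direction turned with TMM scaling (log2 0.08).

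The 5p arms of the same hairpins did not share this pattern. hsa-miR-23b-5p had 364, 328 and 371 CPM, so its lowest level was in subclone1. hsa-miR-27b-5p had 210, 205 and 188 CPM, with its lowest level in subclone2 by library totals. The subclone1 to parent ratio was 0.900 for hsa-miR-23b-5p (0.840 to 0.963) and 0.974 for hsa-miR-27b-5p (0.892 to 1.06). Summed over both hairpins, the 3p arms had a subclone1 to parent ratio of 1.44 (1.39 to 1.48) and the 5p arms a ratio of 0.927 (0.878 to 0.978). hsa-miR-24-1-5p had 4, 2 and 1 counts, and no difference was detectable. The antisense names hsa-miR-3074-3p and hsa-miR-3074-5p, whose hairpin lies on the other strand at MIR24-1, had at most 2 counts.

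Summed by cluster, leaving out the shared hsa-miR-24-3p, the 23a/27a names had 1692, 2450 and 1722 CPM, and the 23b/27b names 1724, 2182 and 1743 CPM. The subclone1 to parent ratio was larger for 23a/27a (1.45, 1.41 to 1.49) than for 23b/27b (1.27, 1.23 to 1.30). With all arms counted, 23a/27a held 49.5%, 52.9% and 49.7% of both clusters, an odds ratio of 1.14 for subclone1 against the parent (1.10 to 1.19). With the 3p arms alone it held 59.3%, 59.4% and 58.9%, and the odds ratio was 1.01 (0.965 to 1.05). The interval of the summed 3p arms held 1, although the miR-23 and miR-27 paralogues taken separately did not keep their proportions. The gap between the cluster ratios appeared once the 5p arms of MIR23B and MIR27B were added. The cluster sums and shares also rest on the uncertain split of 3p reads between a and b names.

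By seed family, the paralogue shares differed from the parent in opposite directions in both subclones. The share of hsa-miR-23a-3p among the miR-23 3p counts was 81.2%, 76.9% and 75.98%. The share of hsa-miR-27a-3p among the miR-27 3p counts was 49.4%, 53.2% and 50.8%. The odds ratios for subclone1 against the parent were 0.771 (0.6999 to 0.849) and 1.16 (1.10 to 1.22). Those for subclone2 were 0.733 (0.668 to 0.805) and 1.06 (1.003 to 1.11). Both shares depend on the base at position 19 and are uncertain for the reason given above.

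The arm balance was examined next, because as the names were counted it set the 23b hairpin apart from its paralogue. The hairpins MIR23A and MIR23B are shown with their annotated 5p and 3p products in capitals, the 5p product coming first (RNA, from GRCh38.p14, chr19:13836587-13836659 minus strand and chr9:95085208-95085304 plus strand).
MIR23A: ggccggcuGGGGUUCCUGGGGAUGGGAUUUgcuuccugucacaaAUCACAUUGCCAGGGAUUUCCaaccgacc
MIR23B: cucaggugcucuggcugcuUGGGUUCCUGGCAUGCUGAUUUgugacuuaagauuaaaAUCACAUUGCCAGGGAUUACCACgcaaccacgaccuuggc

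The 5p strand made up 2.07%, 2.80% and 2.31% of the MIR23A counts, compared with 68.95% (67.5 to 70.4), 56.9% (54.7 to 59.0) and 62.5% (60.6 to 64.3) of the MIR23B counts. Thus, as the names were counted, hsa-miR-23b-5p outnumbered hsa-miR-23b-3p in every library, whereas hsa-miR-23a-3p exceeded its 5p partner. The 3p counts of miR-23a, miR-23b, miR-27a and miR-27b, and so their arm shares, rest on the uncertain split between a and b names. With MIR23A and MIR23B summed the 5p share was 30.3%, 24.7% and 29.5%, so the 3p counts led in every library. For MIR27B the 5p share was 17.6%, 12.8% and 16.4%, and for MIR27A it was 0.367%, 0.264% and 0.417%. For miR-24, with both 5p copies summed, it was 0.844%, 1.30% and 0.866%. Reads of different sequence are ligated with different efficiency, so shares of arms are not amounts in the cell. Comparing them between libraries takes the library preparation as equal, which was not tested.

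**Figure D2:**
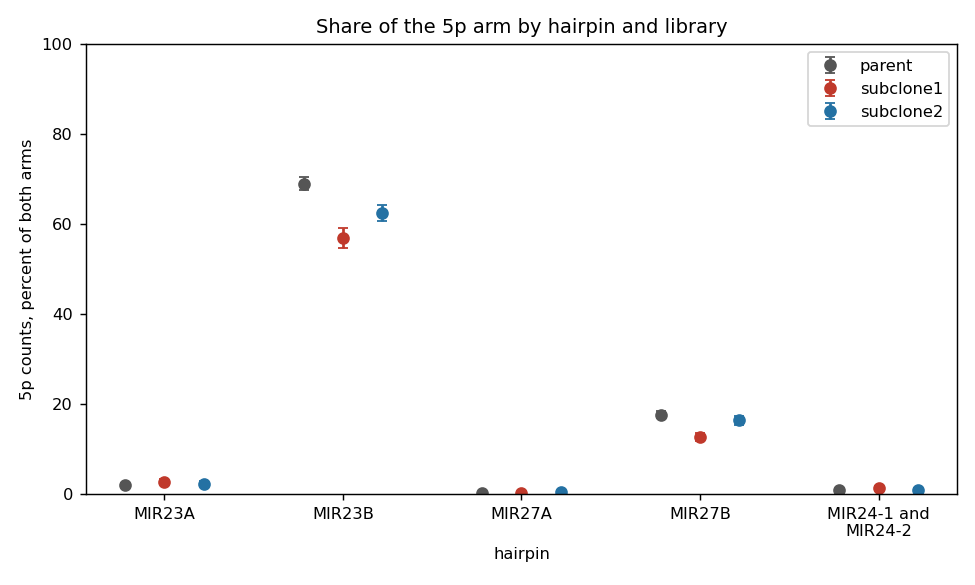
Counts of the 5p arm as a percentage of the counts of both arms, by hairpin and library, with exact 95% binomial intervals (MIR24-1 and MIR24-2 summed). MIR23B lies between 56.9% and 68.95%, MIR27B between 12.8% and 17.6%, and the others below 3%, with the lowest MIR23B and MIR27B values in subclone1. The miR-23 and miR-27 shares rest on the uncertain split of 3p reads between a and b names.

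In subclone1 the odds of a 5p read were 0.594 times those of the parent for MIR23B (0.533 to 0.662) and 0.685 times for MIR27B (0.623 to 0.752). In subclone2 they were 0.750 (0.678 to 0.831) and 0.917 (0.838 to 1.003). The summed hairpins, which do not depend on the split between a and b names, gave 30.3%, 24.7% and 29.5% for miR-23 and 9.90%, 6.54% and 8.97% for miR-27. This sum was chosen after the values were seen. With it the odds ratio in subclone1 was 0.752 (0.696 to 0.812) for miR-23 and 0.636 (0.582 to 0.696) for miR-27. In subclone2 the summed odds ratio was 0.961 (0.896 to 1.03) for miR-23 and 0.897 (0.823 to 0.977) for miR-27. These sums also move with the proportion of MIR23A to MIR23B counts, and the part of the read split was not tested.

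Arm balances that differed between libraries were also seen in other miRNAs. Both arms were kept (at least 10 CPM in each contrast) for 31 miRNAs, 3 of them members (miR-23a, miR-23b and miR-27b). Among the 28 others, the log2 change of the 5p to 3p ratio in subclone1 against the parent ran from -1.24 to 1.87 with a median of -0.13, and was below 0 in 19. The changes of miR-23b (-0.75) and miR-27b (-0.55) lay inside this range, with 5 and 6 of the others below them. miR-23a had a change of 0.45. The 5p arm outnumbered the 3p arm in 20 of the 31 in the parent.

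**Figure D3:**
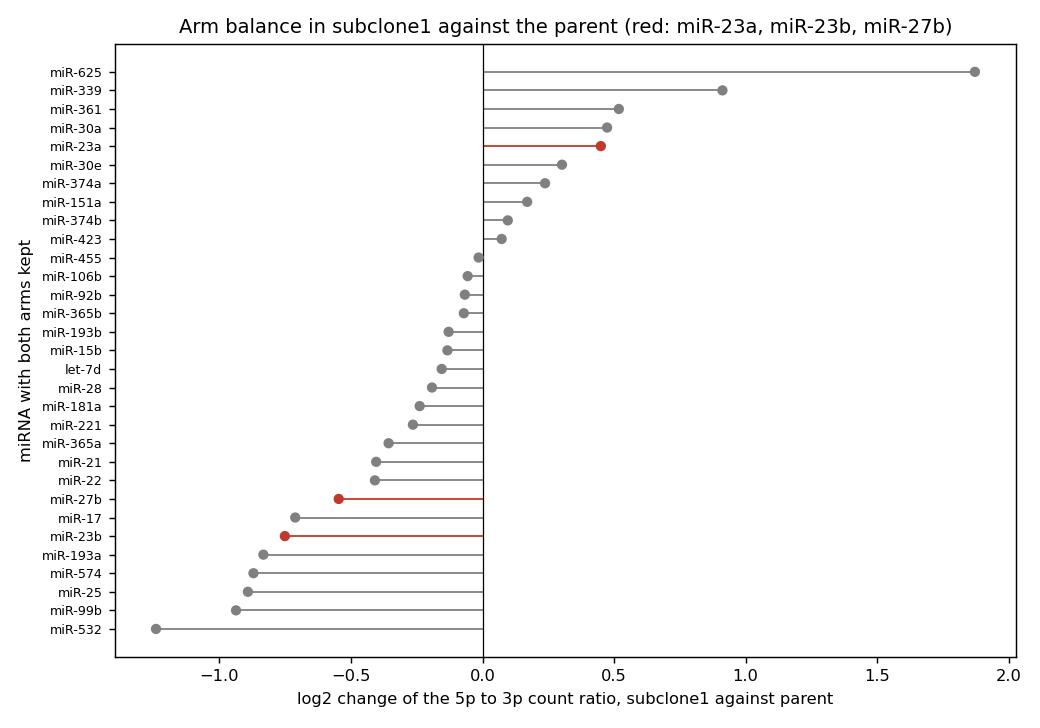
log2 change of the 5p to 3p count ratio in subclone1 against the parent for the 31 miRNAs with both arms kept, sorted by value, with members in red. miR-23b (-0.75) and miR-27b (-0.55) lie among the lower values and miR-23a (0.45) among the upper ones.

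The members were then set beside all miRNAs by a rule of size, in which a miRNA was called when its ratio was at least 2-fold with an interval excluding 1, among those with a mean of at least 10 CPM. Of the 11 members 8 passed this minimum in every contrast. hsa-miR-24-1-5p, hsa-miR-24-2-5p and hsa-miR-27a-5p did not in any contrast. For subclone1 against the parent, 0 of 8 members were called, while 13.0% of all 192 kept miRNAs were. At a threshold of 1.5-fold, 3 of 8 were higher (hsa-miR-23a-5p, hsa-miR-23b-3p and hsa-miR-27a-3p) against 17.2% of all. Under each of the 3 other scalings hsa-miR-23b-3p fell short of this threshold, and 2 of 8 were higher past it, against 16.7% of all. The interval lay wholly above 1 for 6 of 8 members and for 38.5% of all kept miRNAs. The median log2 ratio was 0.37 over the members and 0.02 over all kept miRNAs, and the member values ran from -0.15 (hsa-miR-23b-5p) to 0.72 (hsa-miR-27a-3p). No member changed its direction in this contrast under the other scalings. The interval of hsa-miR-24-3p, however, reached below 1 with median-of-ratios factors and with a reduced total. That total left out the 12 miRNAs among the 10 most abundant of any library. In both settings 5 of 8 intervals lay above 1, against 32.3% of all kept miRNAs.

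For subclone2 against the parent, 0 of 8 members were called and 10.7% of 187 kept miRNAs were. At 1.5-fold 0 of 8 passed by library totals, compared with 26.7% of all in either direction. With TMM (log2 0.61) and median-of-ratios scaling (0.59) hsa-miR-23b-3p passed, as did 23.5% of all in either direction. Intervals excluded 1 for 2 of 8 members, hsa-miR-23b-3p (higher, log2 0.44) and hsa-miR-27b-5p (lower, log2 -0.16), and for 69.5% of all. This count depended on the scaling. With TMM and with median-of-ratios factors 6 of 8 intervals lay above 1 and 0 below, against 35.8% and 33.2% of all above 1. Those above 1 were hsa-miR-23a-3p, hsa-miR-23b-3p, hsa-miR-23b-5p, hsa-miR-24-3p, hsa-miR-27a-3p and hsa-miR-27b-3p. With the reduced total 5 of 8 lay above 1, against 29.4% of all. The median log2 ratio was 0.02 over the members and -0.15 over all. TMM scaling moved the latter by 0.17, and under it the log2 ratios of hsa-miR-23a-3p and hsa-miR-27b-3p changed from -0.01 and -0.04 to 0.17 and 0.14, and that of hsa-miR-27b-5p to 0.01. The closeness of subclone2 to the parent therefore holds for library totals only, and relative to all kept miRNAs the members lay 0.18 higher.

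For subclone2 against subclone1, 0 of 8 members were called and 5.76% of 191 kept miRNAs were. At 1.5-fold 1 of 8 was lower, hsa-miR-27a-3p (ratio 0.624, 0.6001 to 0.649), against 16.2% of all. It did not reach 1.5-fold under any of the other scalings (log2 -0.45, -0.47 and -0.54). The interval lay below 1 for 6 of 8 members and for 44.0% of all kept miRNAs. With TMM and with median-of-ratios factors only hsa-miR-27a-3p and hsa-miR-27b-3p kept an interval below 1, against 23.6% and 25.1% of all. The interval of hsa-miR-24-3p then lay above 1. With the reduced total 3 of 8 lay below, against 30.4% of all. hsa-miR-27b-3p had a ratio of 0.686 (0.658 to 0.714). hsa-miR-23b-5p was the only kept member with a higher level in subclone2 by library totals (1.13, 1.05 to 1.22). The median was -0.19 over the members and -0.17 over all, and TMM scaling moved the latter by 0.23. hsa-miR-27a-3p and hsa-miR-27b-3p were lower in subclone2 under every scaling tried, whereas the signs of hsa-miR-23a-3p, hsa-miR-23b-3p, hsa-miR-24-3p and hsa-miR-27b-5p turned under TMM (0.004, 0.08, 0.11 and 0.11).

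**Figure D4:**
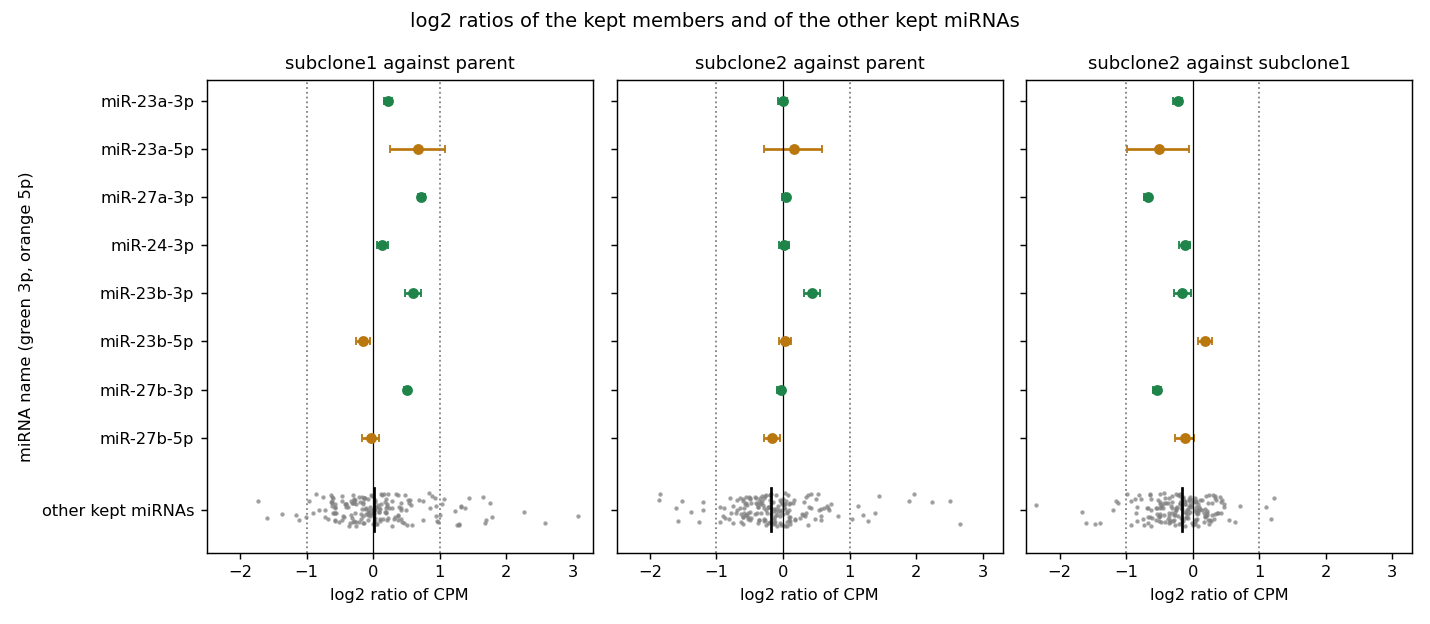
log2 ratio of CPM for the 8 kept members in each contrast, with exact 95% conditional intervals (3p green, 5p orange), above the ratios of the other kept miRNAs (grey, black bar at their median); dotted lines mark 2-fold. In subclone1 against the parent the 3p arms lie between 0.14 and 0.72, and no member reaches 2-fold in any contrast.

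Hairpins near the clusters were listed for comparison. Within 1 Mb of the chromosome 19 cluster lie MIR181C and MIR181D, at 38040 and 38216 bases on the opposite strand. hsa-miR-181d had 192, 321 and 256 CPM, and hsa-miR-181c-5p had 18.98, 36.4 and 20.1 CPM, with log2 ratios of 0.74 and 0.94 for subclone1 against the parent. Within 1 Mb of the chromosome 9 cluster lie the hairpins of let-7a, let-7f and let-7d. hsa-let-7d-5p had 8574, 7835 and 7778 CPM, a log2 ratio of -0.13 in subclone1. Of the 13 listed names from all hairpins within 1 Mb of a member 6 were kept, and 0 were called in any contrast. Over all kept miRNAs the shares called were 13.0% (subclone1 against the parent), 10.7% (subclone2 against the parent) and 5.76% (subclone2 against subclone1). At 1.5-fold hsa-miR-181d and hsa-miR-181c-5p were higher in subclone1 against the parent by library totals, as were 17.2% of all kept miRNAs. The kept let-7 names near the chromosome 9 cluster were not.

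Because miR-27 is known as a regulator of cholesterol and lipid genes, other miRNAs with this role were listed. Of 31 listed names 11 were kept. Their median log2 ratio was -0.29 in subclone1 against the parent with 0 called, beside 0.02 and 13.0% called over all kept miRNAs. In subclone2 against the parent it was -0.19 with 1 called lower, hsa-miR-34a-5p (-1.61), beside -0.15 and 10.7% over all. hsa-miR-33a-5p, which represses the cholesterol exporter ABCA1, had 17.97, 30.2 and 17.3 CPM. Its level was highest in subclone1, against the direction of the list median there. hsa-miR-128 had 1945, 1596 and 1205 CPM.

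The miRNAs with the pattern nearest to the clusters were taken by the distance between their log2 ratios of both subclones against the parent, over 3 libraries and 177 kept miRNAs. For the 23a/27a sum the nearest was hsa-miR-1277-3p (distance 0.01, against a median of 0.78), followed by hsa-miR-1246 and hsa-miR-1287. hsa-miR-1277-3p had only 86, 56 and 50 counts, and its log2 ratio of subclone1 to the parent had an interval of 0.01 to 1.03, far wider than that distance. For the 23b/27b sum the nearest were hsa-miR-452-5p (0.03), hsa-miR-224-5p (0.09) and hsa-miR-185-5p (0.10), of which hsa-miR-452-5p had 1146, 1480 and 1164 CPM. For hsa-miR-24-3p they were hsa-miR-29a-3p (0.02), hsa-miR-151a-5p and hsa-miR-29c-3p (both 0.05). All these ratios share the parent library, and the distances are descriptions of 3 libraries.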

How the data were processed

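Total RNA was extracted with Trizol, and 1 ug entered the TruSeq Small RNA kit per the labels. The authors deposited raw read counts per mature miRNA name, 1 library per strain. The submitters' processing notes name CASAVA 1.4 and hg19; the aligner, mismatch limit, miRBase release and treatment of shared reads are not given in the sources used here. Counts were divided by the library total. Before taking log2 ratios, 0.5 was added to both counts, and the interval of a ratio was the exact conditional binomial (Clopper-Pearson) interval at 95%. Odds ratios carry intervals from the normal approximation of the log odds ratio. Kept miRNAs averaged 10 CPM or more across the pair of libraries. A call required 2-fold and an interval excluding 1. The limit set by 0 counts (taken as 3 counts) was 0.380, 0.840 and 0.657 CPM. With no replicates no p-value was computed. The procedure was run on simulated counts that carried counting error only. They held no spread between cultures or library preparations, so that run does not bear on such spread. The names given values were all members, names sharing a seed, antisense names, hairpins within 1 Mb, a lipid list (up to 4 by value) and the 3 nearest patterns. Members and lists were chosen with earlier results of these data known. Sequences are from RefSeq (GRCh38.p14) and hosts from GENCODE release 29. Python 3.11.15, scipy 1.17.1 and edgeR 4.0.16 (TMM factors) were used. Alternatives comprised other scalings, a pseudocount of 5, other minimum levels and thresholds, and summed arms.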

Additional observations from a re-analysis of the deposited data

How the results depend on the processing

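No paired analysis was possible because each strain has 1 library, and for the same reason no library could be left out. Scaling moved the cluster sums by less than 1.5-fold and turned none of their directions. With TMM, median-of-ratios and the reduced total (without the 12 miRNAs among the 10 most abundant of any library), the log2 ratio of subclone1 to the parent was 0.47, 0.47 and 0.46 for 23a/27a (0.53 as reported) and 0.28, 0.27 and 0.27 for 23b/27b (0.34). For subclone2 against the parent it was 0.20, 0.17 and 0.10 for 23a/27a (0.03) and 0.19, 0.16 and 0.088 for 23b/27b (0.02). For subclone2 against subclone1 it was -0.28, -0.30 and -0.36 for 23a/27a (-0.51) and -0.092, -0.11 and -0.18 for 23b/27b (-0.32). The member median was 0.22 with a minimum of 100 CPM in subclone1 against the parent, where 7 members were kept. In subclone2 against the parent it was 0.19 with TMM and 0.17 with median-of-ratios factors. In subclone2 against subclone1 it was 0.040, 0.021 and -0.049 with the 3 scalings, so no direction is drawn from it. A threshold of 1.5-fold gave 3 calls in subclone1 against the parent and 1 in subclone2 against subclone1 by library totals, and the other thresholds, and the other scalings and minimum levels at 2-fold, gave 0. With TMM, median-of-ratios and the reduced total, added for this threshold after the data were seen, 1.5-fold gave 2, 2 and 2 calls in subclone1 against the parent, 1, 1 and 0 in subclone2 against the parent and 0, 0 and 0 in subclone2 against subclone1. The shares of all kept miRNAs past 1.5-fold in either direction were 32.3%, 32.3% and 32.8%, then 23.5% in each, then 15.2%, 15.2% and 14.7%. By library totals they were 29.2%, 26.7% and 18.8%. Intervals excluding 1 numbered 7, 6 and 6 of 8 (7 by library totals), 6, 6 and 5 (2) and 4, 4 and 4 (7) in these contrasts. Over all kept miRNAs the shares were 69.8%, 69.3% and 69.8% (68.75%), 63.6%, 62.6% and 68.4% (69.5%) and 58.6%, 58.1% and 57.6% (59.7%). Taking 3p arms alone changed the 23a/27a share to 59.3%, 59.4% and 58.9%. Summing paralogues, an alternative added after the data were seen, gave 5p shares of 30.3%, 24.7% and 29.5% for miR-23 in place of MIR23B, and of 9.90%, 6.54% and 8.97% for miR-27 in place of MIR27B. Depth limited hsa-miR-24-1-5p, hsa-miR-24-2-5p and hsa-miR-27a-5p, each with at most 31 counts in a library. The spread between cultures or library preparations was not measured, so intervals that exclude 1 do not show a difference between strains.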
